A study of Mus musculus with 2 samples.

Results

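Among 14685 cell barcodes from mouse neural stem cell cultures, 232 combined a shallow library with little mitochondrial RNA and at least 1 count of Lgals1. They were chosen by 3 values: 500 to 800 detected genes, mitochondrially encoded (mt-) genes at 1.5% or less of the unique molecular identifiers (UMIs, which count captured RNA molecules), and at least 1 Lgals1 UMI. They made up 1.58% of all barcodes (exact Clopper-Pearson 95% interval 1.38% to 1.79%) and 15.5% of the 1496 barcodes with 500 to 800 genes (13.7% to 17.4%). The 692 barcodes with the same number of genes and mt- genes above 1.5% and up to 10% of UMIs were the comparison. Another 171 barcodes of 500 to 800 genes also lay at or under 1.5% but held no Lgals1 UMI. Since detected genes, mt- share and Lgals1 chose the members, their values for these are descriptions only.

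The cells were neural stem cells of the C57/Bl6J strain, derived from the subventricular zone, a neurogenic niche along the lateral ventricles, and expanded in culture. Of the 2 labelled libraries, 1 came from vehicle (DMSO) cultures and 1 from cultures given 20HC, an oxysterol, at 1 µM, each harvested 3 days after EGF and FGF were withdrawn; the treatment text of the control library also names 20HC, and the groups were read from the titles. The deposited matrix pools both libraries, and the endings of the barcodes (1 or 2) carry no link to a library. All barcodes were therefore taken as 1 sample: barcode set 1 and barcode set 2, named by these endings, stand for no condition, no difference was tested, and every interval covers counting error only.

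Galectin-1, encoded by Lgals1, is a small lectin that binds β-galactosides and is made by astrocytes and neural stem cells of the subventricular zone. Fabp7 encodes the brain lipid-binding protein of radial glia and neural progenitors, Lgals3 encodes galectin-3, which appears in glia and phagocytes, and S100a11 encodes a calcium-binding protein of the S100 family. The share of UMIs from mt- genes and the number of detected genes are the usual quality measures of a droplet library, since a damaged cell, a bare nucleus and free RNA each yield an unusual value for at least 1 of them. Which of these the members are was not tested.

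Members were shallow, with a median depth near that of the comparison barcodes but a longer upper tail. Their median was 1094.5 UMIs (range 727 to 3384) and 597 genes, against 1064.5 UMIs and 647.5 genes in the comparison and 2962 UMIs in the 12183 barcodes with more than 800 genes and up to 10% mt- UMIs. The upper quartile was 1417 UMIs in members and 1208 in the comparison. Median depth was 1078 and 1077 UMIs in barcode set 1, and 1403 and 1021 in barcode set 2. The members' summed depth was 288370 UMIs, so that 1 UMI equalled 3.47 CPM (UMIs of a gene in parts of 1e+06 UMIs of the group), against 763263 UMIs for the comparison. The median mt- share was 0.716% in members and 4.27% in the comparison. Barcode set 1 held 208 members (17.6% of its 1185 barcodes with 500 to 800 genes) and barcode set 2 held 24 (7.72% of 311, interval 5.01% to 11.3%). A barcode sequence occurred in both sets in 48 cases, 3 of them members. Scrublet, a doublet caller, marked 5 members and 6 comparison barcodes, which were kept.

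**Figure D1:**
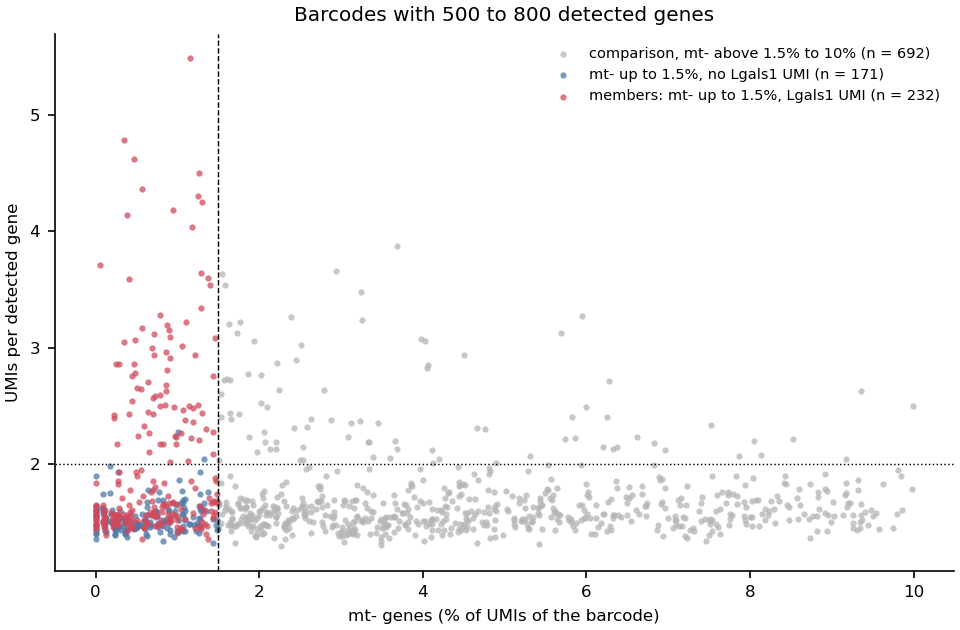
Barcodes with 500 to 800 detected genes by mt- share (x axis, % of UMIs) and UMIs per detected gene (y axis); each point is 1 barcode. Of the 232 members 81 lie at or above 2 UMIs per gene (dotted line), against 2 of the 171 low mt- barcodes without Lgals1 and 87 of the 692 comparison barcodes to the right of the dashed line at 1.5%.

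The members varied widely among themselves. Lgals1 was at 1 UMI in 80 of them (34.5%), at 2 to 4 UMIs in 68, at 5 to 9 in 19 and at 10 or more in 65 (28.0%), with a median of 2 and a highest value of 82. The counts ran out in a long tail with no gap that set some members apart. The number of UMIs per detected gene, which is high when a few genes take many of the UMIs, was higher in members with more Lgals1 UMIs. It was under 1.6 in 102 members, 1.6 to under 2 in 49, 2 to under 3 in 54 and 3 or more in 27, with 6 members between 1.9 and 2.1. A value of 2 was chosen as the divide after these values were seen.

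At 2 or more UMIs per gene, 81 members (34.9%, interval 28.8% to 41.4%) carried a median of 15 Lgals1 UMIs. The 151 members below 2 carried a median of 1. Median depth was 1610 UMIs in the former and 972 in the latter, so raw counts also differ by depth. In the comparison 12.6% of barcodes reached 2 (10.2% to 15.3%), and among low mt- barcodes without Lgals1 only 2 of 171 did (1.17%, interval 0.142% to 4.16%). In barcode set 1 the shares were 32.7% of members and 14.4% of the comparison; in barcode set 2 they were 54.2% of 24 members and 5.96% of the comparison. For each of the 15 genes with the largest ratios to the comparison the ratio of set 2 exceeded that of set 1, and this makeup and the small number of members in set 2 go with it.

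**Figure D2:**
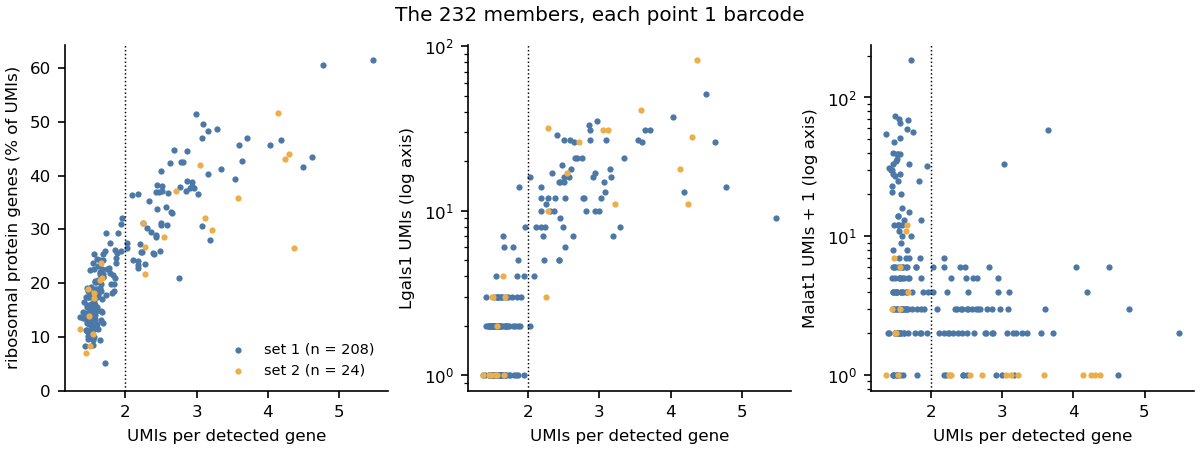
The 232 members by UMIs per detected gene (x axis) against the share of UMIs from ribosomal protein genes (left), Lgals1 UMIs (middle, log axis) and Malat1 UMIs plus 1 (right, log axis); each point is 1 barcode, coloured by barcode set. Members at 2 or more UMIs per gene had a median ribosomal share of 36.8% and a median of 15 Lgals1 UMIs, against 15.9% and 1 for those below.

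The 3 markers other than Lgals1 were all higher in members than in the comparison, and each was patchy across barcodes. Fabp7 had a UMI in 77.2% of members, with a median of 2 UMIs and a highest value of 83, and in 59.2% of comparison barcodes. Its summed level was 4057 CPM (exact Poisson 95% interval 3828 to 4297) against 1663 CPM (1572 to 1757), a log2 ratio of 1.28 after adding 10 CPM to each side, or 0.99 in set 1 and 2.52 in set 2. In the 171 low mt- barcodes without Lgals1 it stood at 1765 CPM, close to the comparison.

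Lgals3 had a UMI in 47.0% of members and 26.4% of comparison barcodes. It stood at 1519 CPM against 557 CPM (log2 ratio 1.43; 0.73 in set 1, 3.68 in set 2), but 1 member of set 2 held 115 of its 438 UMIs. Without that barcode the log2 ratio was 1.01. S100a11 had a UMI in 34.9% of members and 17.2% of the comparison and stood at 669 CPM (578 to 771) against 295 CPM (258 to 336), a log2 ratio of 1.16. All 3 had their highest single value in barcode set 2, which holds 24 of the members.

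The 4 markers rarely met in full in 1 barcode. Of the 3 other than Lgals1, 26 members held none, 86 held 1, 77 held 2 and 43 held all 3. Of these 43, 31 had 2 or more UMIs per gene. The 4 markers thus described the 81 members with concentrated UMIs better than the rest: Fabp7 stood at 6475 CPM in the former and 1807 CPM in the latter, Lgals3 at 2439 and 663 CPM, and S100a11 at 1086 and 281 CPM. In the latter, levels of Fabp7 and S100a11 lay close to the 1765 and 308 CPM of low mt- barcodes without Lgals1, while Lgals3 lay above their 447 CPM. Comparison barcodes with 2 or more UMIs per gene also carried these 3 markers, at 3948 CPM of Fabp7, 1661 of Lgals3 and 879 of S100a11. Against them, the log2 ratios of the 81 members were 0.71, 0.55 and 0.30.

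Among barcodes not chosen for Lgals1, a high count of it was more frequent in shallow ones at matched depth. After each barcode was thinned to 700 UMIs, 5.23% of 688 comparison barcodes kept 5 or more Lgals1 UMIs (3.69% to 7.17%), against 0.665% of 12183 deeper barcodes (0.528% to 0.826%). At least 1 Lgals1 UMI was present at that depth in 36.6% of the comparison and 32.2% of deeper barcodes. Of the members, which were chosen for Lgals1, 26.3% kept 5 or more. The 80 members with exactly 1 Lgals1 UMI were close to the 171 barcodes with none in Fabp7 (1715 against 1765 CPM), S100a11 (309 against 308 CPM) and UMIs per gene (median 1.54 against 1.51). They had more Lgals3 (696 against 447 CPM) and less Malat1 (11528 against 16821 CPM), the abundant nuclear RNA described further on.

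Levels just inside and just outside the limits of the rule differed by marker. Within 0.25 points below the mt- limit, 39 members stood at 6877 CPM of Lgals1, 4274 CPM of Fabp7 and 660 CPM of S100a11. Within 0.25 points above it, 23 barcodes with Lgals1 stood at 6159, 5261 and 1059 CPM. Around the gene minimum, 33 members in the lowest 25 numbers of genes stood at 7251 CPM of Lgals1, 855 CPM of S100a11 and 3998 CPM of Malat1. Up to 25 genes below, 29 barcodes that met the other conditions stood at 8422, 566 and 1831 CPM. At the upper end, 8 members within 25 genes of the limit stood at 3110 CPM of Lgals1 and 10 barcodes up to 25 genes beyond it at 1313 CPM.

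Across all barcodes of 500 to 800 genes, with or without Lgals1, its level peaked at intermediate low mt- shares and declined above them. It was 2814 CPM at up to 0.5% mt- UMIs, 4528 CPM at 0.5% to 1%, 4360 CPM at 1% to 1.5%, 3306 CPM at 1.5% to 2%, 2584 CPM at 2% to 3%, 1013 CPM at 3% to 5% and 747 CPM at 5% to 10%. In barcodes with more than 800 and up to 1200 genes the same bins spanned only 538 to 764 CPM. A low mt- share thus went with high Lgals1 in shallow barcodes and far less in the next deeper ones. In barcodes with more than 1200 and up to 2000 genes it declined with mt- share too, from 1406 CPM at 0.5% to 1% through 625 CPM at 3% to 5% to 543 CPM at 5% to 10%. Above 2000 genes Lgals1 was likewise higher at a low mt- share, with 2958 CPM in 35 barcodes at 1% to 1.5% against 900.4 CPM in 404 at 3% to 5%. Fabp7 ran the other way above 2000 genes, from 393 to 1046 CPM in the same bins, whereas in barcodes of 500 to 800 genes it was higher at a low mt- share.

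**Figure D3:**
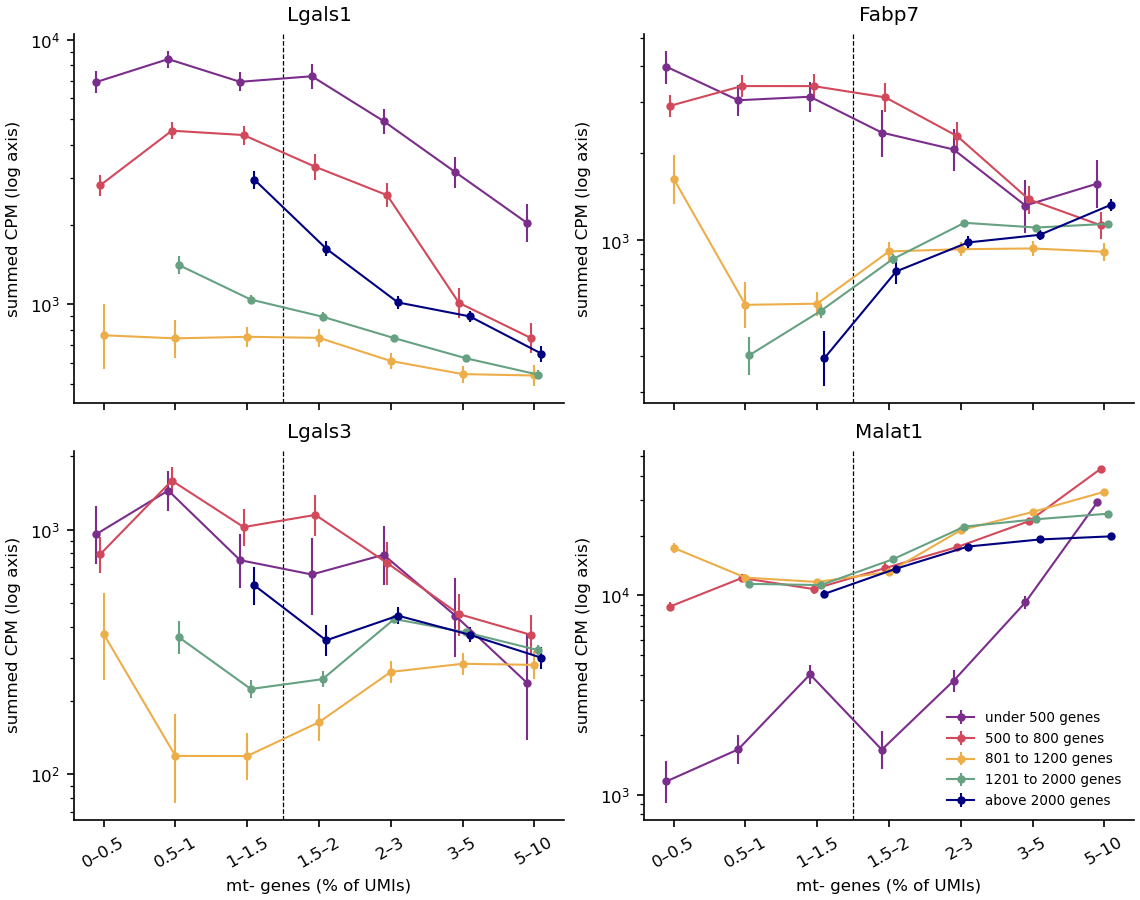
Summed CPM (log axis) of Lgals1, Fabp7, Lgals3 and Malat1 by bin of mt- share (x axis, % of UMIs) within ranges of detected genes; bars are exact Poisson 95% intervals, bins under 20 barcodes are left out, and the dashed line marks 1.5%. In barcodes of 500 to 800 genes Lgals1 reaches 4528 CPM at 0.5% to 1% and is 747 CPM at 5% to 10%, while the next deeper range stays between 538 and 764 CPM.

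Of 3866 genes with at least 30 UMIs over members and comparison (mt- genes and Lgals1 left out), 224 were at least 1.5-fold higher in members, with either barcode set on the same side (5.79% of genes measured), and 1169 were at least 1.5-fold lower (30.2%). The median log2 ratio over all of them was -0.24, -0.18 in set 1 and -0.65 in set 2, and single ratios are to be read against it. With trimmed-mean (TMM) scaling the median moved to 0.04 and the counts to 548 higher and 825 lower. The 30 UMIs were counted over both groups, and the comparison held more UMIs. A gene could thus pass on comparison UMIs alone and could then only be called lower. Among the 1476 genes with at least 100 UMIs, 162 were higher and 233 lower, with a median log2 ratio of -0.02. Members were chosen for Lgals1 and the comparison was not. Against the 311 comparison barcodes that also held a Lgals1 UMI, 140 genes were higher and 410 lower, 87 and 376 of them shared with the first comparison. Against the 171 low mt- barcodes without Lgals1, 160 of 1954 measured genes were higher in members (8.19%) and 512 lower (26.2%).

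**Figure D4:**
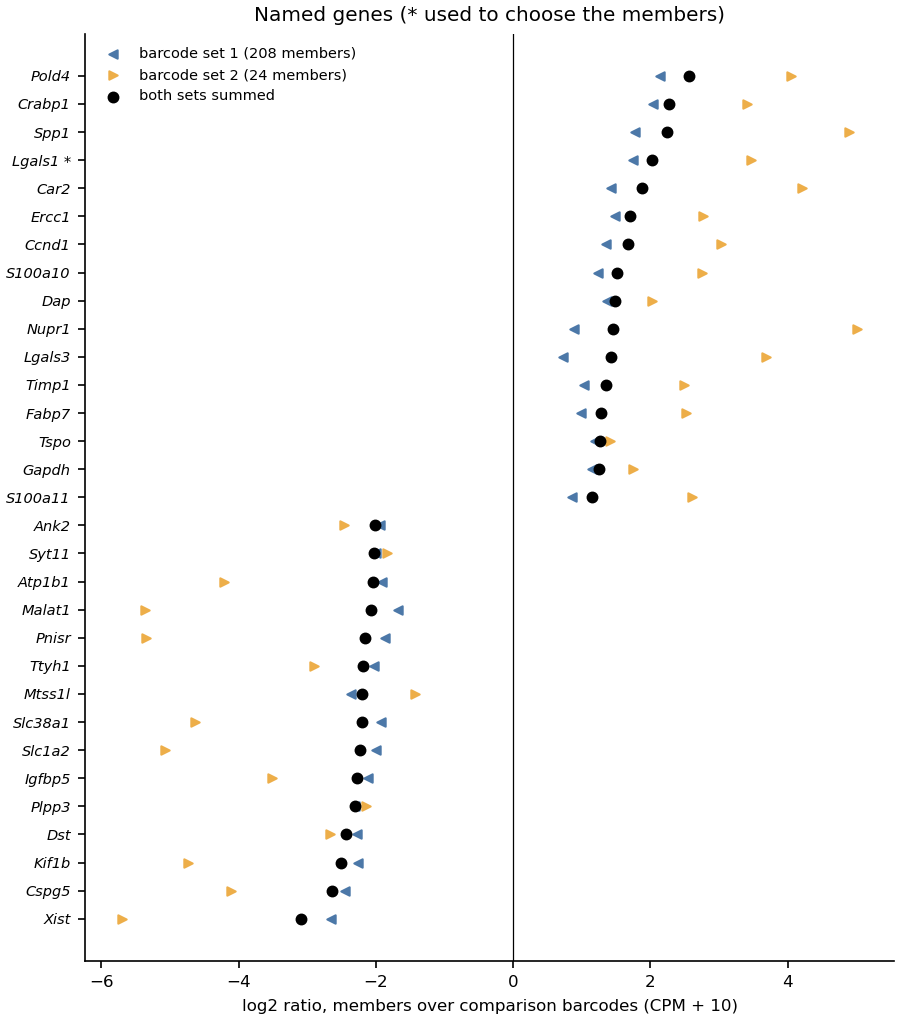
Log2 ratio of CPM + 10 between members and comparison barcodes (x axis) for the 4 markers, genes with the largest ratio, Fabp7 and Lgals3 among them, and the 15 with the smallest; black points are both sets summed, triangles the 2 barcode sets. Lgals1 (asterisk) chose the members. Pold4 has the highest ratio, 2.56, and Xist the lowest, -3.09.

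The largest ratios belonged to genes of varied roles. Pold4, the small subunit of DNA polymerase delta, stood at 527 CPM in members (447 to 618) and 81.2 CPM in the comparison (62.3 to 104), a log2 ratio of 2.56. Crabp1, a retinoic acid-binding protein, stood at 305 against 55.0 CPM, and Ercc1, a nuclease subunit of nucleotide excision repair, at 298 against 85.2 CPM. Spp1, which encodes the secreted phosphoprotein osteopontin, stood at 1384 CPM (1251 to 1526) against 284 CPM (248 to 325). These genes lie on chromosome 19 (Pold4, 4231899 to 4233634), 9 (Crabp1, 54764748 to 54773110), 7 (Ercc1, 19344778 to 19356524) and 5 (Spp1, 104435118 to 104441050) of mm10, and Lgals1 itself on chromosome 15 (78926725 to 78930465).

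Cyclin D1 (Ccnd1), which drives cells through G1, stood at 461 CPM in members and 138 CPM in the comparison. Carbonic anhydrase 2 (Car2) stood at 492 against 127 CPM, the stress-induced nuclear protein gene Nupr1 at 506 against 178 CPM, and the metalloproteinase inhibitor gene Timp1 at 180 against 64.2 CPM. Ercc1, Ccnd1, Timp1, Tspo and Gapdh each overlap a gene on the opposite strand in the annotation, and no source used here says whether counting used strand.

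Most of these genes stood higher in the 81 members with 2 or more UMIs per gene than in the rest. Between these 2 subsets, 200 of 1258 measured genes were higher at 2 or more (15.9%) and 497 lower (39.5%). Pold4 had a UMI in 46 of these 81 and in 8 of the other 151, at 1036 and 53.6 CPM. Crabp1 stood at 604 and 26.8 CPM, Spp1 at 2540 and 308 CPM, Ccnd1 at 806 and 141 CPM, and Nupr1 at 943 and 100.4 CPM. In low mt- barcodes without Lgals1, Pold4 stood at 72.5 CPM and Spp1 at 78.6 CPM. That group was chosen for lacking Lgals1, and only 2 of its 171 barcodes reached 2 UMIs per gene. Its levels therefore do not show how mt- share alone goes with either gene.

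When both sides were limited to 2 or more UMIs per gene (81 members, 87 comparison barcodes), some of the ratios were much smaller and others were not. Pold4 had a log2 ratio of 2.12 there, Crabp1 1.76 and Spp1 1.74, but Nupr1 0.25 and S100a11 0.30. Of 956 genes measured at that depth, 74 were higher (7.74%) and 123 lower (12.9%). Below 2 UMIs per gene (the other barcodes of either group), Pold4 had a log2 ratio of 0.10, while Car2 stayed at 1.44 and S100a10 at 1.28. Crabp1 had too few UMIs to be measured below 2 (log2 ratio -0.13). There 389 of 3544 genes were higher (11%) and 699 lower (19.7%).

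Ribosomal protein genes took up much of the members' RNA. The cytosolic ribosomal protein genes made up 26.7% of their UMIs (267143 CPM) against 16.7% in the comparison and 15.1% in low mt- barcodes without Lgals1. Of 81 measured, 48 were higher in members (59.3%, against 5.79% of all measured genes) and none lower, with a median log2 ratio of 0.62. The median was 0.27 with both sides at 2 or more UMIs per gene and 0.30 with both below, each smaller than the pooled value. The calls were nearly all lost there: none of 79 measured genes was higher at 2 or more and 3 of 80 below. These lie under the 7.74% and 11% of all genes measured there. Among translation factors 6 of 17 were higher in the pooled groups (35.3%, against 5.79%) and 1 lower. Eef1a1, which brings aminoacyl-tRNA to the ribosome, stood at 7990 CPM (7667 to 8323) against 4465 CPM.

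Among the 232 members, UMIs per gene and ribosomal share had a Spearman correlation of 0.87, and UMIs per gene and Lgals1 UMIs 0.78. Both are descriptions over barcodes that share a matrix, and each pair shares the UMI total of the barcode.

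The S100 family was split. S100a10, the partner of annexin A2, stood at 902 CPM against 308 CPM (log2 ratio 1.52), S100a11 as above, and S100a6 (calcyclin) at 940 against 582 CPM (0.68). The other 5 of 8 measured, among them S100a1 at 690 against 692 CPM and S100a16 at 350 against 352 CPM, lay past the fold in neither direction. The astrocyte gene S100b was scarce, at 34.7 against 44.5 CPM. Of 6 measured annexins, Anxa1 (93.6 against 31.4 CPM) and Anxa3 (139 against 34.1 CPM) were higher. With both sides at 2 or more UMIs per gene, 1 of 7 S100 genes and 3 of 5 annexins were higher, against 7.74% of all genes measured there. With both below, 1 of 8 S100 genes and none of 4 annexins were higher, against 11%. Fabp5, another fatty acid-binding protein, stood at 1467 against 1200 CPM, short of 1.5-fold.

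Glycolytic and cytoskeletal genes were higher in part. Of 12 glycolytic genes 6 were higher (50%, against 5.79% of all measured genes) and none lower. The 6 were Aldoa, Tpi1, Gapdh, Pgam1, Eno1 and Pkm, and the median log2 ratio of the list was 0.60. With both sides at 2 or more UMIs per gene 2 of 9 were higher, against 7.74% of all genes measured there. With both below, 2 of 12 were higher, against 11%. Gapdh stood at 3076 CPM (2877 to 3285) against 1291 CPM (1211 to 1374). Of 18 actin and thymosin genes 7 were higher (38.9%, against the same 5.79%), with 6 of 17 at 2 or more UMIs per gene and 7 of 18 below. Tmsb4x, which binds actin monomers, led them in level at 24791 against 14869 CPM, while Actb itself stood at 2819 against 2743 CPM. Vim, the intermediate filament gene of progenitors and astrocytes, stood at 9405 against 5018 CPM.

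Nuclear genes for the same respiratory complexes did not share the low level of the mt- genes in the pooled groups. All 10 measured mt- genes were lower, as the rule fixes; mt-Atp6, a subunit of ATP synthase, stood at 1325 against 10721 CPM. Of 86 nuclear genes of oxidative phosphorylation 5 were higher (5.81%, against 5.79% of all measured genes) and 2 lower (2.33%, against 30.2%), and their summed level was 58449 CPM in members and 56332 CPM in the comparison. Their median log2 ratio was -0.01, with 0.31 under TMM scaling. With both sides at 2 or more UMIs per gene, none of 73 was higher and 12 were lower, and with both below, 10 of 85 were higher and 4 lower. Cox4i1, a nuclear subunit of complex IV, stood at 3176 CPM (2974 to 3389) against 3266 CPM (3139 to 3397). Of 23 genes of mitochondrial import and matrix 1 was higher (Vdac1) and 1 lower.

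RNAs that stay in the nucleus were low in the pooled groups. All 4 measured (Malat1, Meg3, Neat1 and Kcnq1ot1) were lower, with a median log2 ratio of -2.32. Malat1, an abundant noncoding RNA of nuclear speckles, had a median of 2 UMIs in members (highest 184) and 18 in comparison barcodes (highest 210). Its summed level was 6918 CPM (6618 to 7229) against 29025 CPM (28644 to 29410). It stood at 1604 CPM in the 81 members with 2 or more UMIs per gene and 2682 CPM in comparison barcodes of that kind (log2 ratio -0.74), and was the only one of the 4 with enough UMIs to be measured there. In barcodes under 2 it stood at 11862 CPM in members and 34647 CPM in the comparison (-1.55), and in low mt- barcodes without Lgals1 at 16821 CPM. In barcode set 2 the 13 members with 2 or more UMIs per gene had no Malat1 UMI among 27257, which allows up to 3.

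Xist, the RNA that coats the inactive X chromosome, was lower still in ratio, at 121 against 1110 CPM (log2 ratio -3.09), and 15 of 232 members had a UMI against 33.4% of the comparison. At 2 or more UMIs per gene Xist was at 2 UMIs in each group (14.4 and 14.9 CPM), so the difference lay in barcodes under 2 (221 against 1343 CPM, log2 ratio -2.55). The 4 Y-linked genes Ddx3y, Eif2s3y, Uty and Kdm5d together stood at 34.7 CPM in members (16.6 to 63.8) and 66.8 CPM in the comparison (49.8 to 87.9). Neither sex-linked readout was higher in members.

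Genes lower in members had long transcripts. The median of the longest annotated transcript was 4093 bases for the 1169 lower genes, 1766 for the 224 higher genes and 2722 for all measured. When genes were ranked by this length and cut into 4 groups of near equal size, 11.2% of the shortest group were higher and 10.4% lower. In the longest group 1.14% were higher and 59.2% lower, and among the named genes Dst, a cytoskeletal linker (17.3 against 138 CPM), Ank2, encoding ankyrin-B (38.1 against 183 CPM), and the kinesin gene Kif1b (27.7 against 204 CPM) are of that kind. Leaving out ribosomal protein genes moved the median log2 ratio of the shortest group from 0.04 to 0.01 and that of the longest not at all at this precision (-0.84). Low mt- barcodes without Lgals1 showed the same order to a lesser degree, with 3.92% lower in the shortest group and 31.4% in the longest (14.6% over all). With both sides below 2 UMIs per gene the order was seen too, with 5.31% lower in the shortest group and 39.9% in the longest. At 2 or more, 13.2% were lower in the shortest group and 16.9% in the longest, with median log2 ratios of -0.03 and -0.26. Only 71 genes of the longest group were measured there, too few to judge the order.

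Astrocyte genes were mostly lower. Of 12 measured markers 8 were lower (66.7%, against 30.2% of all measured genes) and none higher, with a median log2 ratio of -1.0. With both sides at 2 or more UMIs per gene 1 of 6 was lower, near the 12.9% of all genes measured there. With both below, 7 of 12 were lower, against 19.7% of all genes measured there, and 1 was higher. The genes lower in the pooled groups included the glutamate transporter genes Slc1a2 (52.0 against 280 CPM) and Slc1a3 (218 against 449 CPM). They also included the water channel gene Aqp4 (270 against 604 CPM) and the gap junction gene Gja1 (135 against 417 CPM). Gfap was an exception at 2934 CPM (2739 to 3138) against 3503 CPM, as was Aldoc, a glycolytic enzyme of astrocytes, at 735 against 563 CPM. The Gfap exception held for the pooled groups and below 2 UMIs per gene (3997 against 3561 CPM), while at 2 or more it stood at 1791 CPM in members and 3233 CPM in the comparison (log2 ratio -0.85). Igfbp5, which encodes a secreted binding protein of insulin-like growth factors, stood at 173 against 879 CPM.

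Stem and progenitor markers divided. Of 8 measured 6 were lower (75%, against 30.2% of all measured genes), Sox2, Egfr, Mki67, Sox9 and Prom1 among them. Only Vim was higher. Sox2, a transcription factor of neural stem cells, stood at 69.4 against 159 CPM. Vim was past the fold only in the pooled groups: it stood at 14202 against 12276 CPM at 2 or more UMIs per gene, where it was the only gene of the list measured, and at 4940 against 3469 CPM below. Below 2, 5 of 7 measured genes of the list were lower, against 19.7% of all genes measured there. Among genes for secreted lipoproteins and targets of the sterol receptor LXR, 6 of 8 were lower in the pooled groups (75%, against 30.2%). Apoe, the main lipoprotein component of astrocytes, stood at 2608 CPM (2425 to 2801) against 6838 CPM (6653 to 7026), and Clu at 614 against 1267 CPM.

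**Figure D5:**
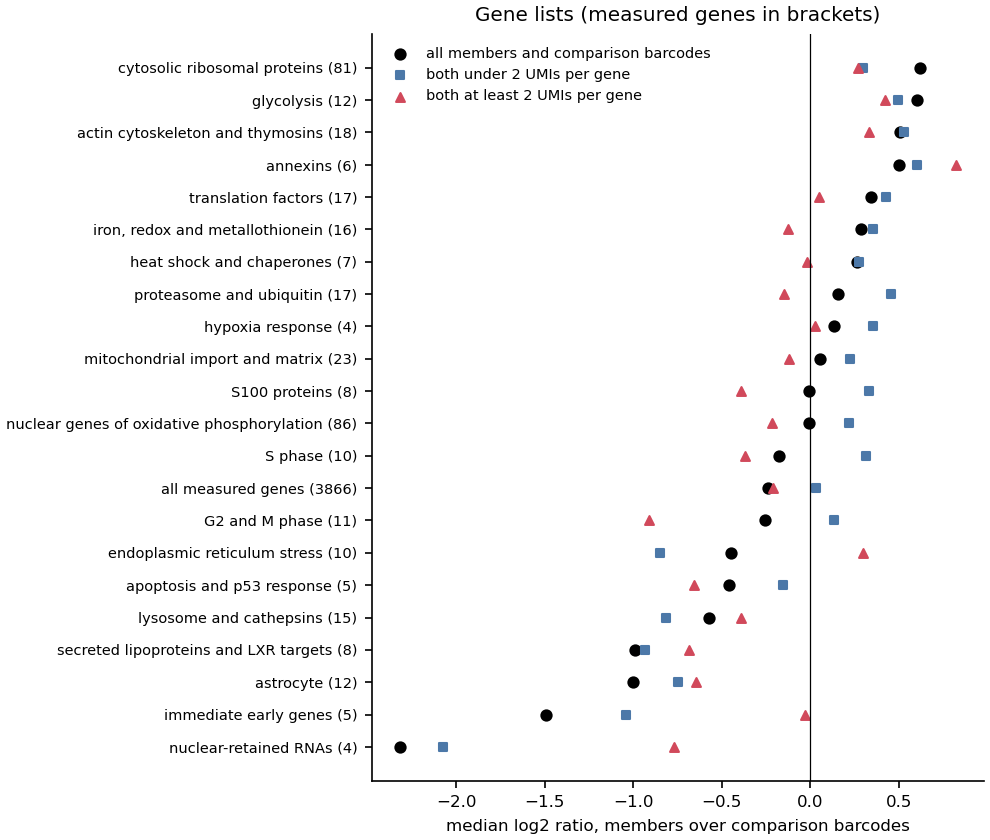
Median log2 ratio between members and comparison barcodes (x axis) per gene list, with the number of measured genes in brackets, for all barcodes (circles), those under 2 UMIs per gene (squares) and those at 2 or more (triangles), over the same genes. Ribosomal protein genes lie at 0.62, 0.30 and 0.27, nuclear-retained RNAs at -2.32, -2.07 and -0.77. The bracketed numbers hold for all barcodes. At 2 or more, some triangles rest mostly on genes with too few UMIs to be measured there: 1 of 4 nuclear-retained RNAs and no G2 and M gene was measured.

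Genes of dividing cells differed with UMIs per gene. Of 11 measured G2 and M phase genes 5 were lower (Mki67, Cenpf, Ccnb1, Cdc20 and Tpx2; 45.5%, against 30.2% of all measured genes) and none higher, and of 10 S phase genes 1 was higher (Gins2). The G2 and M list summed to 954 CPM in members and 1178 CPM in the comparison, with a median log2 ratio of -0.26, or 0.02 under TMM scaling. At 2 or more UMIs per gene it summed to 187 against 432 CPM, with none of its genes measured there, and below 2 to 1667 against 1337 CPM, with 2 lower and a median of 0.13. The chromatin protein gene Hmgb2 also differed between the members at 2 or more and those below, at 43.2 and 850 CPM. The high level of Ccnd1 stood in the members where these genes were low.

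Genes of stress and cell death were mixed, and shares of lower genes are to be read against the 30.2% of all measured genes. All 5 measured immediate early genes were lower, Fos at 55.5 against 204 CPM and Jun at 6.94 against 60.3 CPM; 3 of 5 were lower below 2 UMIs per gene, and none could be measured at 2 or more. Of 10 genes of endoplasmic reticulum stress 4 were lower (40%, near that share), among them the chaperone gene Hspa5 at 125 against 346 CPM, and none of 5 was lower at 2 or more UMIs per gene. Of 7 heat shock genes 1 was lower (Dnajb1), of 5 apoptosis and p53 genes 2 were lower (Mdm2 and Fas, again near that share), and of 15 lysosomal genes 7 were lower, Psap at 433 against 1021 CPM. In the hypoxia list Car9, a carbonic anhydrase, was higher and P4ha1 lower of 4. Among iron, redox and metallothionein genes 2 of 16 were higher, Gpx1 and Gstm1. In the proteasome and ubiquitin list 1 of 17 was higher and 1 lower.

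Markers of other cell types were at 0 or scarce. All 6 erythroid markers were at 0 UMIs in members, which allows up to 10.4 CPM (3 UMIs) for each. Of 7 endothelial markers 5 were at 0, of 6 choroid plexus markers 5, of 12 microglial markers 4 (Csf1r, Cx3cr1, Ctss and Aif1), and the summed microglial list stood at 118 CPM against 86.5 CPM in the comparison. The fibroblast list summed to 59.0 against 216 CPM, with Pdgfrb and Postn at 0. In the pericyte and smooth muscle list Acta2 (156 against 78.6 CPM) and Tagln (69.4 against 23.6 CPM) were higher, while Vtn, Kcnj8 and Des were at 0; low mt- barcodes without Lgals1 had more of both, at 187 and 163 CPM.

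Neuronal and oligodendroglial markers were also low. Neuroblast markers summed to 548 against 723 CPM, with Sp8 and Sp9 at 0 and 1 of 4 measured genes lower (Dlx1). Oligodendrocyte precursor markers summed to 59.0 against 156 CPM, with Pdgfra, Cspg4 and Nkx2-2 at 0. Of 3 measured ependymal genes 1 was lower (Foxj1), again near the share of all measured genes. In the list for Schwann and olfactory ensheathing cells only Fabp7 was higher, and Frzb and Erbb3 were at 0. Of 13 Hedgehog pathway genes 7 were at 0 in members, including Gli1, Gli2 and Ptch1, and of the 2 measured, Ccnd1 was past the fold and Ccnd2 (981 against 1211 CPM) was not. At 3.47 CPM per UMI the depth could not show transcripts as rare as these.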

How the data were processed

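UMI counts per gene and barcode were deposited by the authors as 1 pooled matrix of 28692 genes, made with Cell Ranger 2.1.1 on mm10 per the submitters' processing notes; per the labels' protocols, libraries used a 10x 3′ kit, which counts transcript ends. Members, lists and the divide at 2 UMIs per gene were chosen with earlier results of these data known. UMIs were summed per group and scaled to CPM, with exact Poisson intervals; shares carry exact Clopper-Pearson intervals. Such sums weight barcodes by depth. A gene was higher or lower when CPM + 10 differed by 1.5-fold and in the same direction in both sets; no p-values were computed. Named genes were the 4 markers, the 15 largest and 15 smallest ratios (at least 100 UMIs), all measured galectins, S100 genes, fatty acid-binding proteins and nuclear-retained RNAs, and the 3 most abundant genes of each other list; the other genes named were chosen after their values were seen, and a few genes taken by this rule are not reported here. Positions and lengths came from GENCODE M21 (98.8% of gene IDs matched). Scrublet (scanpy 1.11.5) marked 3.22% of 10400 barcodes in set 1 and 0.767% of 3650 in set 2, under the expected 8.32% and 2.92%, so undetected doublets are likely to remain. Python 3.11.15, numpy 2.4.6 and scipy 1.17.1 were used, and the fold rule was tested on simulated counts.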

Additional observations from a re-analysis of the deposited data

Results flagged for a closer look

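Barcodes with fewer than 500 detected genes, which the comparisons above do not use, carried the members' markers. Of 225 such barcodes with mt- genes at 1.5% or less, 205 held a Lgals1 UMI (91.1%, interval 86.6% to 94.5%), 135 in set 1 and 70 in set 2. Lgals1 stood at 8076 CPM in these 205, Fabp7 at 3495 CPM, Lgals3 at 1095 CPM, S100a10 at 850 CPM, S100a11 at 730 CPM, Spp1 at 855 CPM and Pold4 at 495 CPM. All 7 values are above those of the comparison barcodes with 500 to 800 genes, though Lgals1 chose the 205. Barcodes under 500 genes just above the mt- limit were alike. Lgals1 had a UMI in 83.3% of 48 at 1.5% to 2% mt- UMIs (7271 CPM) and in 84.8% of 66 at 2% to 3% (4923 CPM). Of these 2 bins 81.25% and 81.8% had 2 or more UMIs per gene. At 5% to 10% Lgals1 had a UMI in 54.3% of 81 (2029 CPM). Comparison barcodes at 2 or more UMIs per gene stood higher than the 205 in Fabp7 (3948 CPM), Lgals3 (1661 CPM) and S100a11 (879 CPM). They stood lower in Spp1 (752 CPM) and Pold4 (231 CPM). Of the 205 barcodes, 77.6% had 2 or more UMIs per gene. This share is partly fixed by the choice of barcodes with fewer than 500 genes. The fewest UMIs of any barcode were 774 in set 1 and 611 in set 2, so few genes go with a high ratio. The share therefore cannot be set against the 34.9% of members. Among all barcodes under 500 genes with 5% to 10% mt- UMIs it was 40.7%. The median ribosomal protein share of the 205 (40.8%) was closer to that of the 81 members with concentrated UMIs (36.8%) than of the rest (15.9%). Ribosomal share rose with UMIs per gene among members, so the same limit holds for it. Median depth of the 205 was 929 UMIs over 411 genes, and at 700 UMIs 52.4% of 189 kept 5 or more Lgals1 UMIs. The gene minimum of the rule thus leaves out these 205 barcodes.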

How the results depend on the processing

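No paired analysis was possible because the barcodes carry no label that ties them to a library and no test was made. The share of barcodes with 500 to 800 genes that were members (15.5%) became 11.5% at an mt- limit of 1%, 18.6% at 2%, 10.2% with at least 2 Lgals1 UMIs, 26.9% with no condition on Lgals1, 18% at 500 to 650 genes, 11.9% above 650, 17.6% in set 1 and 7.72% in set 2. The 224 higher genes became 140 against comparison barcodes with Lgals1, 346 with CPM over genes other than mt- and ribosomal, 41 at 2-fold, 341 with equal weight to each set, 548 with TMM scaling, 389 below 2 UMIs per gene and 74 at 2 or more. The 1169 lower genes became 462 at 500 to 650 genes, 574 above 650, 320 in set 2, 410 against comparison barcodes with Lgals1, 674 against those up to 5% mt-, 605 with 50 CPM added, 646 after thinning, 233 with at least 100 UMIs, 3669 with at least 1 UMI, 628 at 2-fold, 699 below 2 UMIs per gene and 123 at 2 or more. The first 2 and the last 2 of these settings, set 2 alone, the comparison limits, thinning and the UMI minimum also change how many genes could be measured; otherwise the cause was not tested. The median of nuclear oxidative phosphorylation genes (-0.01) ran from -0.23 at 2 or more UMIs per gene, -0.16 with 2 Lgals1 UMIs and -0.13 at 500 to 650 genes to 0.10 above 650 genes and for the mean over barcodes, 0.11 without mt- and ribosomal UMIs, 0.21 below 2 UMIs per gene and 0.31 with TMM scaling. That of G2 and M genes (-0.26) was -0.89 at 500 to 650 genes, -0.80 with 2 Lgals1 UMIs, -0.77 with equal weight, 0.17 above 650 genes and 0.22 with no condition on Lgals1. In set 2 alone the S100 median was 1.53 and that of nuclear-retained RNAs -5.26. Directions reversed for Col1a1 (0.24) against comparison barcodes up to 5% mt-. Below 2 UMIs per gene they reversed for Timp1 (-0.10) and for Crabp1 (-0.13), which had too few UMIs to be measured there. At 2 or more they reversed for C1ql1 (0.78), Fn1 (0.26), Col1a1 (0.78), P4ha1 (1.15), Btg2 (0.86) and Hspa5 (0.30). Of these, C1ql1, Fn1, Col1a1 and Btg2 had too few UMIs to be measured there. The stem and progenitor list stood at 0.21 there over Vim, its only gene measured, and at -0.18 over its 8 genes measured in the pooled groups. TMM scaling also turned the medians of the S100 list (0.31), the S phase list (0.10) and the G2 and M list (0.02). The divide at 2 UMIs per gene, equal weights, TMM scaling and leaving out each gene's highest member were added after seeing the data.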
